A study of Sus scrofa with 12 samples.

Results

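Sarcomere and Z-disc structural genes were described in the Semimembranosus muscle, a hind limb muscle that goes into dry-cured ham, of 12 Italian Large White pigs. The genes were taken as a list of 45 symbols, without the myosin heavy chains and the troponins, and a symbol was a member where an identifier of the count table carried that gene name and had counts. Of the 45 symbols, 38 were found, 37 under the listed symbol and 1, MYLPF, under its present symbol MYL11. No identifier among the genes counted carried the names TTN, LDB3, MYOZ2, TPM3, LMOD3, TMOD1 and KLHL41, which are not analysed here. All 38 passed the filter on low counts, among 14262 genes tested of 20341 with at least 1 count.

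The sarcomere is the contractile unit of the muscle fibre. Thin filaments of actin, tropomyosin and nebulin are anchored at the Z-disc by alpha-actinin, and slide past thick filaments of myosin, whose light chains and binding proteins tune the force, while myomesins hold the thick filaments together at the M-band. Slow and fast fibres use different genes for several of these parts, so that a muscle of mixed fibres expresses both sets, and a further group of Z-disc proteins is known to respond to stretch, load or damage.

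The 6 high IMF and 6 low IMF pigs differed in the intramuscular fat (IMF) of this muscle. By the labels all belonged to 1 breed, had 1 diet and housing and weighed 150 to 160 kg, and they were 229 to 249 days old. Each group held 3 pigs labelled female and 3 labelled male. Pigs 1 to 6 are the high IMF group and pigs 7 to 12 the low IMF group. Polyadenylated RNA was sequenced from 1 muscle sample per pig. Library totals ran from 131048805 to 178013997 counts, at which depth the differences between pigs far exceed the error of counting, and no 2 libraries of a group agreed within sampling noise. In 6 pigs (3, 5, 7, 8, 9 and 10) the counts of Y chromosome genes went against the labelled sex. An exchange of samples, within or between groups, cannot be told apart from an error in the sex label, and for the 10 members with the smallest p the fold change in the 4 high and 2 low IMF pigs left without them is also given. The normalization factor of pig 7, 0.81, was the lowest of the 12, against 0.918 to 1.12 in the others, and it raises the normalised levels of that pig.

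The tissue carried the genes of skeletal muscle fibres. The 4 fibre markers that had a name (CKM, ATP2A1, PYGM and CASQ1, of 10 looked for) summed to 18100, 21044 and 25642 CPM (counts per 1000000 counts of the library, TMM-scaled; lowest, median and highest pig) in the high IMF group and to 21010, 24646 and 35526 CPM in the low IMF group. The 8 adipocyte markers, among them ADIPOQ, PLIN1 and FABP4, summed to between 268 and 384 CPM in the high IMF pigs and between 143 and 559 CPM in the low IMF pigs. Most of this sum was PLIN4, which averaged 269 CPM over the 12 pigs, against 43.1 for ADIPOQ, 20.9 for FABP4 and 4.43 for PLIN1. How far the sum reflects RNA of adipocytes was not tested. None of the 8 reached an unadjusted p of 0.05. Over all the marker lists 3 genes did, where 10.4% of all genes tested did, and none passed an adjusted p of 0.05. The 3 were 1 of 4 fibre markers, 1 of 4 endothelial markers and 1 of 5 fibro-adipogenic markers, with none in the other lists. The calcium pump ATP2A1 of fast fibres was higher in low IMF pigs, with a log2FC of 0.46 (low over high IMF, SE 0.131) and an unadjusted p of 0.00343, as was the endothelial CDH5, at 0.55 (SE 0.159), and PDGFRA of fibro-adipogenic cells was higher in high IMF pigs, at -0.42 (SE 0.17). The other fibre markers CKM, PYGM and CASQ1 were also above 0, at 0.19 (SE 0.147), 0.25 (SE 0.164) and 0.06 (SE 0.141). The endothelial and fibro-adipogenic lists did not move as a whole. The other endothelial markers PECAM1, KDR and TEK were at 0.16, -0.10 and 0.10. Of the other fibro-adipogenic markers, DCN and LUM were at -0.07 and -0.18, and COL1A1 and COL3A1 at 0.46 and 0.30. The part of these markers in the results was not tested. Of the markers of heart muscle, NPPB was at 0 in every pig, MYL4 had at most 20 counts, NPPA and MYL7 carried no name, and an identifier named MYH6 had between 1672 and 7493 CPM. MYH6 is a near copy of the slow myosin gene MYH7, which carried no name, and whether this identifier holds reads of MYH7 was not tested. The marker lists of other cells were low or moderate in both groups, with sums of 92.0 to 159 CPM for 4 endothelial markers, 1050 to 2610 CPM for 5 of fibro-adipogenic cells, 31.8 to 71.8 CPM for 4 of macrophages, 82.2 to 344 CPM for 5 of smooth muscle and 17.4 to 34.8 CPM for 4 of muscle stem cells. In bulk muscle, fewer fibres of a type and less RNA per fibre cannot be told apart.

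The 38 genes took a large part of the RNA counted. In high IMF pigs their share of all counts was 10.9 ± 0.635% (SD, n = 6), and in low IMF pigs it was 11.5 ± 0.555% (SD, n = 6). The shares ran from 10.1 to 11.8% in the former and from 10.8 to 12.2% in the latter, so the groups overlapped. In the pigs whose Y chromosome counts matched the label the shares ran from 10.1 to 11.8% (4 high IMF pigs) and from 11.2 to 12.2% (2 low IMF pigs). Most of this rested on few genes, since 6 of them (NEB, ACTA1, TPM1, MYLPF, MYL1 and XIRP2) held 67.5% of the members' counts.

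Levels can be compared between genes only per length, and CPM were therefore divided by the kilobases of exon of each RefSeq gene. This length joins the exons of all RefSeq transcripts of a gene, 5985 bases for TPM1 and 5226 for MYBPH. It can exceed the transcript made in muscle, so levels per kilobase, their order and ratios between genes are approximate. Of the 37 genes with a RefSeq length, 3 stood above the rest by this measure. MYLPF, the fast regulatory light chain, averaged 12953 CPM per kilobase, with pigs from 10069 to 16533. ACTA1, the skeletal actin of the thin filament, averaged 10422 CPM per kilobase, with pigs from 7680 to 17995. MYL1, the fast essential light chain, averaged 8935 CPM per kilobase, with pigs from 6573 to 10780. These 3 ranges overlapped, so their order is not resolved.

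The next level was lower in every pig. TPM1, which encodes tropomyosin alpha, averaged 1798 CPM per kilobase, with pigs from 1413 to 2491, and TPM2, tropomyosin beta, 1274, with pigs from 838 to 1838. MYL2, the slow regulatory light chain, averaged 1265 CPM per kilobase, MYOZ1, the fast-fibre calsarcin of the Z-disc, 1122, DES, the intermediate filament desmin, 1057, ACTN3, the fast-fibre alpha-actinin, 988, and MYBPC2, the fast myosin-binding protein C, 955. NEB had more counts than any other member, 2.07% of all counts, but nebulin is a giant protein, and per kilobase it averaged 894 CPM. From TPM2 to NEB, the ranges of neighbouring genes overlapped.

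Titin's cap TCAP, PDLIM3, myotilin (MYOT) and XIRP2 followed with means of 773, 751, 604 and 549 CPM per kilobase. The M-band genes MYOM1 and MYOM2 were alike at 197 and 194 CPM per kilobase. At the low end, the chaperone UNC45B averaged 73.7 CPM per kilobase, the methyltransferase SMYD1, needed for myofibril assembly, 56.0, the actin-nucleating leiomodin LMOD2 42.0, and KLHL40, which stabilises nebulin, 27.4. MYOM3, a myomesin of slow and intermediate fibres, averaged 8.30 CPM per kilobase and ACTC1, the heart and fetal actin, 5.06. ANKRD2 had no RefSeq length and averaged 35.5 CPM.

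**Figure D1:**
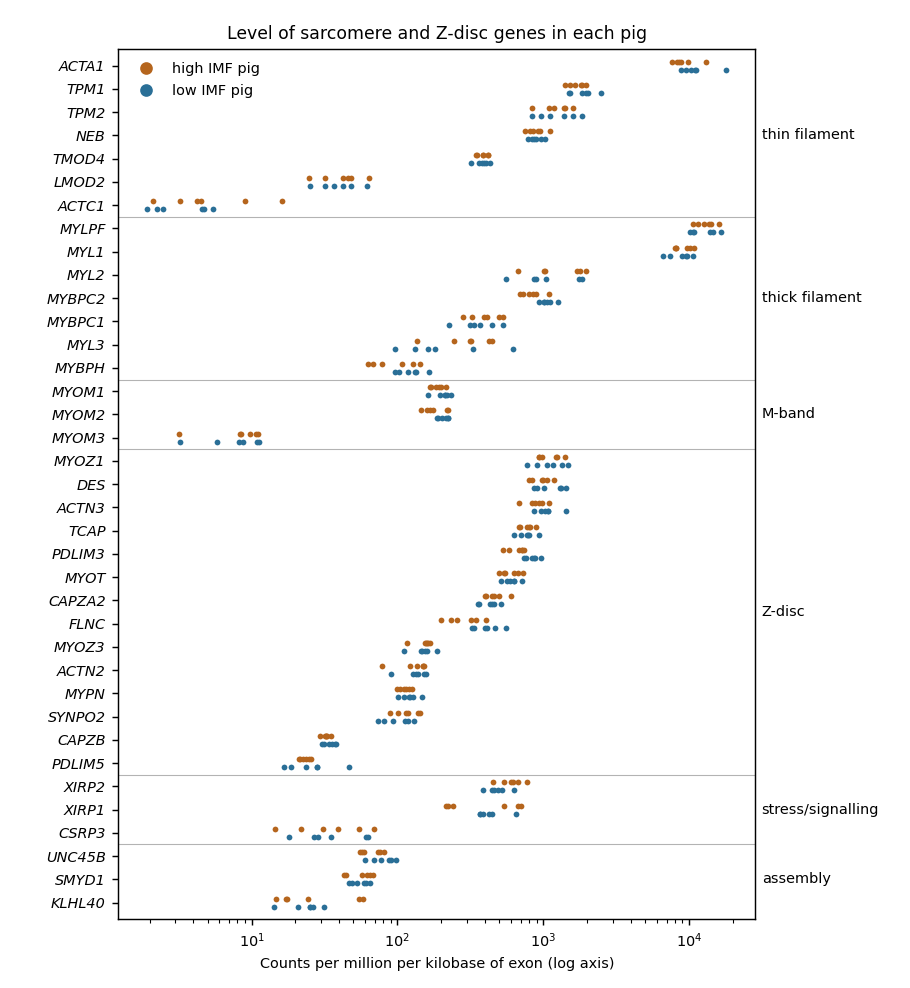
Level of 37 sarcomere and Z-disc genes in each of the 12 pigs, as CPM per kilobase of exon on a log axis, with genes grouped by role; each point is 1 pig, brown for high IMF and blue for low IMF. MYLPF, ACTA1 and MYL1 lie far right, between 6573 and 17995, and ACTC1 and MYOM3 far left, below 17.

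Fast isoforms were the more abundant of each fast and slow pair, in all 12 pigs. Per kilobase, the fast light chain MYLPF exceeded the slow MYL2 by 6.42-fold in pig 6 to 18.2-fold in pig 12, with a median of 11.12. MYL1 exceeded the slow essential light chain MYL3 by 15.2-fold in pig 7 to 76.7-fold in pig 12, with a median of 33.7. For alpha-actinin, ACTN3 exceeded ACTN2, which is made in all fibres, by 4.60-fold in pig 6 to 11.9-fold in pig 9, with a median of 7.27. The smallest lead was that of MYBPC2 over the slow MYBPC1, from 1.31-fold in pig 6 to 4.87-fold in pig 9, with a median of 2.62. The ranges of the 2 IMF groups overlapped for all 4 ratios, also in the 6 pigs whose Y chromosome counts matched the label. Skeletal actin exceeded ACTC1 by 808-fold in pig 2 to 4822-fold in pig 10. The 2 actins have near-identical coding sequences and how reads with several alignments were handled is not given in the sources used here, so the level of ACTC1 is uncertain. Its levels did not follow those of ACTA1 across pigs (Pearson r = 0.22, permutation p = 0.483, Spearman's rho = 0.17, permutation p = 0.588).

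The typical member varied slightly less between pigs than the typical gene tested. The coefficient of variation over the 12 pigs (SD over mean of CPM) had a median of 19.3% over the members and of 22.9% over all genes tested. It exceeded that of the median gene in 15 members, and 10 members were below 15%. Members were not compared with genes of like level. The steadiest were the actin-capping subunit CAPZB, at 8.23%, and the filament-end cap TMOD4, at 8.66%. CAPZB ran from 54.6 to 64.4 CPM, with a median of 59.7, in high IMF pigs and from 55.8 to 70.5 CPM, with a median of 64.6, in low IMF pigs. TMOD4 ran from 485 to 590 CPM in the former and from 451 to 602 CPM in the latter. MYPN, TCAP, MYOM1 and NEB also stayed between 11.2 and 11.6%.

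The 10 members that varied most, at 30% or more, held both slow light chains and 3 of the 4 stress-responsive genes. ACTC1 led at 79.4%, with 3.29, 6.82 and 25.2 CPM (lowest, median and highest pig) in the high IMF group and 3.01, 5.49 and 8.55 CPM in the low IMF group. Its 2 highest pigs, 2 and 6, were both of the high IMF group, and the other 10 pigs lay within 3.01 to 8.55 CPM.

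MYL3 varied by 55.3%, with 100, 234 and 330 CPM in the high IMF group and 70.8, 126 and 458 CPM in the low IMF group. Pig 7 was highest and pig 12 lowest, and both are low IMF pigs. MYL2 varied by 40.5%, with 624, 1266 and 1816 CPM in the high IMF group and 509, 896 and 1706 CPM in the low IMF group. Its levels fell into 2 sets with a gap between them, 7 pigs from 509 to 964 CPM and 5 pigs, 4, 5, 6, 7 and 11, from 1584 to 1816 CPM. Both sets held pigs of both groups. MYOM3, at 34.4%, was lowest in pig 3, at 18.9 CPM, and pig 12, at 19.0 CPM, against 34.4 to 66.4 CPM in the other 10 pigs.

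Genes of the stress-responsive and signalling group had a median coefficient of variation of 44.1%. ANKRD2, an ankyrin repeat protein of the I-band induced by stretch, varied by 53.3%, with 11.13, 34.0 and 75.7 CPM in the high IMF group and 21.7, 32.3 and 54.6 CPM in the low IMF group. CSRP3, the muscle LIM protein, varied by 48.6%, with 13.4, 32.3 and 63.4 CPM in the high IMF group and 16.6, 29.4 and 57.8 CPM in the low IMF group. Both genes were lowest in pig 2, and the groups overlapped over nearly their whole range.

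XIRP1, a Xin repeat protein that collects where myofibrils are damaged and remodelled, varied by 39.5%, and its high IMF pigs split. Pigs 1, 3 and 4 had 1350, 1509 and 1399 CPM, while pigs 2, 5 and 6 had 3368, 4428 and 4176 CPM. The low IMF pigs lay between 2293 and 4084 CPM, with a median of 2548. The related XIRP2 varied by only 20.4%.

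KLHL40, at 52.5%, was at 255 CPM in pig 5 and 272 CPM in pig 6, both of the high IMF group, and at 66.4 to 146 CPM in the other 10 pigs. LMOD2 varied by 30.2%, from 137 to 354 CPM in high IMF pigs and from 141 to 342 CPM in low IMF pigs. PDLIM5, a PDZ and LIM protein of the Z-disc, was at 402 CPM in pig 8 and from 145 to 245 CPM in the other 11 pigs.

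**Figure D2:**
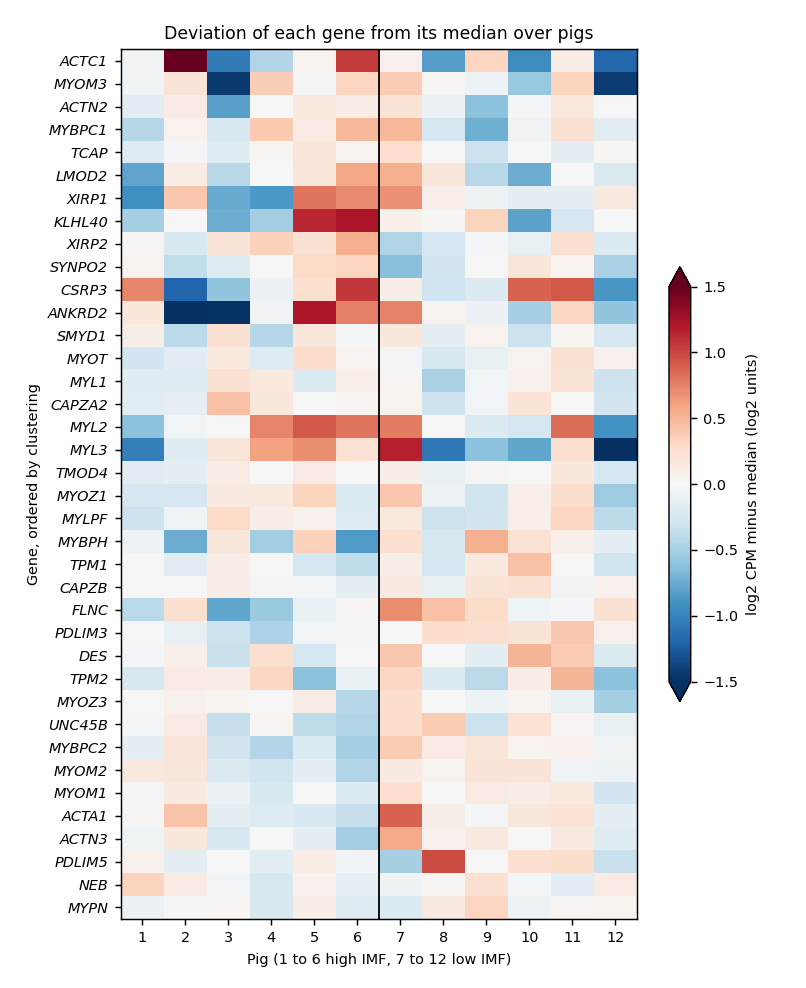
Deviation of each of the 38 genes (rows, ordered by clustering) from its own median over the 12 pigs (columns), in log2 units of CPM, red above and blue below, with a line between high and low IMF pigs. The strongest colours are in ACTC1, MYOM3, XIRP1, KLHL40, CSRP3, ANKRD2, MYL2 and MYL3, and most of the other rows are pale.

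The low and high IMF groups were then compared. Log2FC values are low over high IMF, and a DEG needed a log2FC of 0.58 or more in size with an adjusted p of at most 0.05. By edgeR's quasi-likelihood test, with p adjusted by the Benjamini-Hochberg method across the 14262 genes, 0 members were DEGs. The same test called 0% of all genes tested. The adjusted p of the members ran from 0.419 to 0.997. At an unadjusted p of 0.05, 4 of the 38 members (10.5%) passed, against 10.4% of all genes tested, so the members' share was that of the background. Of these, 3 were higher in low IMF pigs, a direction taken by 5.38% of all genes, and 1 was higher in high IMF pigs, a direction taken by 5.04%. DESeq2's Wald test called 0 members, where it called 0.458% of all genes, with 5 members, and 9.07% of all genes, at an unadjusted p of 0.05 and a lowest adjusted p of 0.0987, for PDLIM3. The limma-voom fit called 0 members and 0 of all genes, with 4 members, and 9.98% of all genes, at an unadjusted p of 0.05.

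The log2FC of the members centred on 0. Its median was 0.01, against -0.01 over all genes tested. It was above 0 for 20 members and below 0 for 18, and for 27 of the 38 it was under 0.25 in size. Only 1 member, ACTC1, passed 0.58 in size. By role, the median log2FC was -0.01 for 7 thin filament genes, -0.06 for 7 thick filament genes, 0.12 for 3 M-band genes, 0.06 for 14 Z-disc genes, -0.05 for 4 stress-responsive genes and -0.03 for 3 assembly factors.

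**Figure D3:**
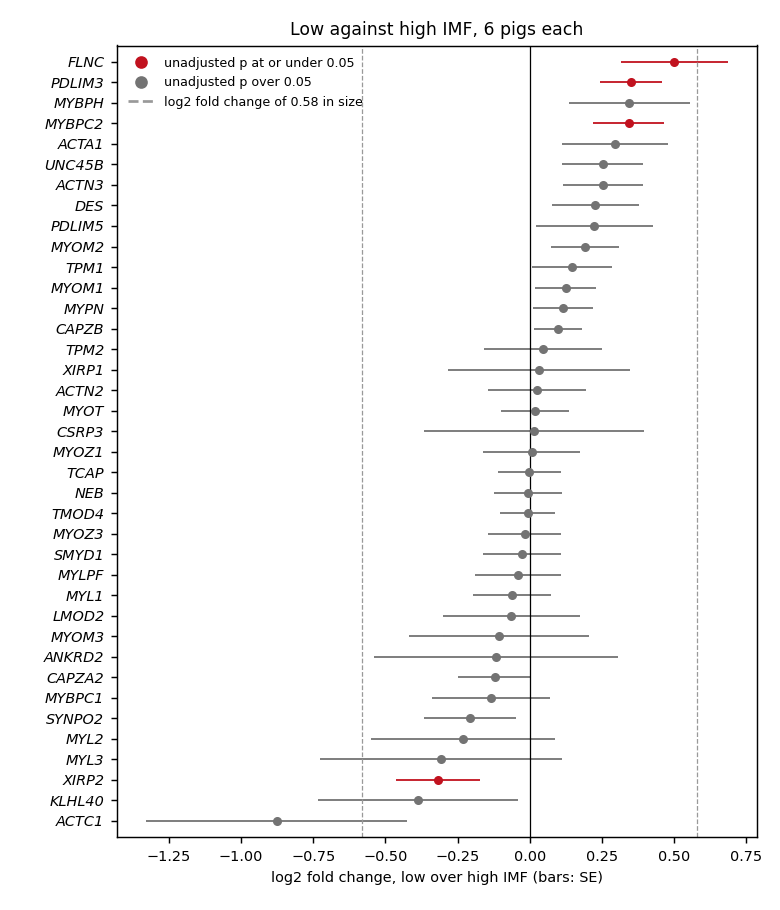
Fold change of the 38 genes between low and high IMF pigs on the log2 scale, with bars for the SE from the quasi-likelihood fit, red for the 4 genes whose unadjusted p was at most 0.05 and dashed lines at 0.58 in size. Most points lie within 0.25 of 0, and FLNC at 0.50 and ACTC1 at -0.88 are the extremes.

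PDLIM3, which binds alpha-actinin at the Z-disc (chromosome 15, bases 46516178 to 46546658, minus strand), had the smallest p. High IMF pigs had 1212, 1589 and 1673.35 CPM (lowest, median and highest) and low IMF pigs 1672.70, 1950 and 2207 CPM. The groups overlapped by less than 1 CPM. The means were 1507 ± 188 (SD, n = 6) and 1922 ± 191 CPM (SD, n = 6), the log2FC was 0.35 (SE 0.109), the unadjusted p 0.00624 and the adjusted p 0.419. An exact permutation test of the mean CPM, two-sided over 924 arrangements of the pigs, gave p = 0.00433 before any adjustment, where the smallest p it allows is 0.00216.

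FLNC, filamin C, which crosslinks actin at the Z-disc and the membrane, had 1844, 2677 and 3751 CPM in high IMF pigs and 3020, 3761 and 5131 CPM in low IMF pigs. All 6 low IMF pigs were above the median of the high IMF group, but 2 high IMF pigs lay within the low IMF range. The log2FC was 0.50 (SE 0.184), the unadjusted p 0.0168 and the adjusted p 0.427. MYBPC2 had 2634, 3141 and 4195 CPM in high IMF pigs and 3576, 3966 and 4821 CPM in low IMF pigs, and pig 2 alone of the high IMF group reached the low IMF range. Its log2FC was 0.34 (SE 0.124), the unadjusted p 0.0158 and the adjusted p 0.427.

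XIRP2 went the other way. High IMF pigs had 5530, 7480 and 9409 CPM and low IMF pigs 4742, 5801 and 7657 CPM, with a log2FC of -0.32 (SE 0.145), an unadjusted p of 0.0457 and an adjusted p of 0.47. The groups overlapped over a wide range. No member had groups that did not overlap, a feature of 0.659% of all genes tested.

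**Figure D4:**
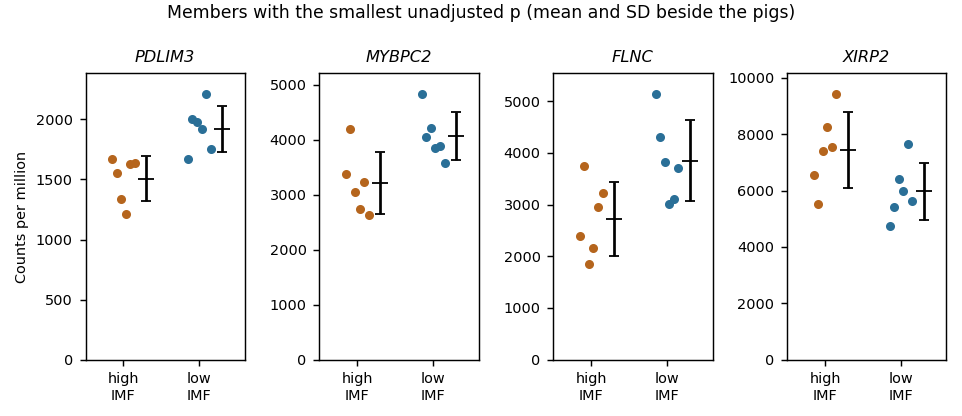
CPM of the 4 genes with the smallest unadjusted p in each pig, high IMF pigs in brown and low IMF pigs in blue, with the mean and SD of 6 pigs beside them, on axes from 0. PDLIM3, MYBPC2 and FLNC lie higher in low IMF pigs and XIRP2 lower, and the ranges of the groups meet or overlap in each.

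These 4 results depended on the pigs in different ways. With each pig left out in turn, the unadjusted p of PDLIM3 stayed at or below 0.0184, that of MYBPC2 at or below 0.0404 and that of FLNC at or below 0.0416 in all 12 fits, while that of XIRP2 rose to 0.118. Without the 6 pigs whose Y chromosome counts went against the label, 0 members had an unadjusted p of 0.05 or less, against 4.05% of all genes in that fit, which rests on 4 and 2 pigs. There the log2FC was 0.39 for PDLIM3, 0.21 for MYBPC2, 0.25 for FLNC and -0.16 for XIRP2. Without pig 2, 8 members were at or under 0.05, and the share over all genes was also higher, 14.3%.

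In the quasi-likelihood test on all 12 pigs, with group as the only term, none of the other named members passed an unadjusted p of 0.05. ACTA1 had 14492, 16301 and 24678 CPM in high IMF pigs and 16660, 20055 and 33957 CPM in low IMF pigs, with a log2FC of 0.29 (SE 0.184) and an adjusted p of 0.602. Its highest value was that of pig 7, and without that pig the log2FC was 0.13. ACTC1 had a log2FC of -0.88 (SE 0.452) with an adjusted p of 0.513, with pigs 2 and 6 highest, and leaving out 1 pig moved it between -1.06 and -0.38. For ACTN3, 2049, 2714 and 3270 CPM in high IMF pigs stood against 2580, 3135 and 4315 CPM in low IMF pigs, a log2FC of 0.25 (SE 0.139) with an adjusted p of 0.544, and without pig 7 it was 0.16. UNC45B, at 0.25 (SE 0.141), MYBPH, a myosin-binding protein, at 0.35 (SE 0.211), and MYOM2, at 0.19 (SE 0.118), had adjusted p values of 0.549, 0.592 and 0.596. In the 4 and 2 pigs whose Y chromosome counts matched the label, the log2FC was 0.04 for ACTA1, -1.30 for ACTC1, 0.07 for ACTN3, 0.04 for UNC45B, 0.49 for MYBPH and 0.03 for MYOM2. The slow light chains had log2FC values of -0.23 (SE 0.319) for MYL2 and -0.31 (SE 0.419) for MYL3. Both moved with single pigs. Without pig 7, the highest in MYL3, the log2FC of MYL3 was -0.80 with an unadjusted p of 0.0339, and without pig 12, the lowest, -0.13, while that of MYL2 ran from -0.42 without pig 11 to -0.08 without pig 12. NEB, TCAP, TMOD4 and MYOZ1 lay within 0.01 of 0, with SEs of 0.0943 to 0.168.

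Genes that build the same structures but are not on the list were compared in the same fit. Of 32 further sarcomere genes, 27 had a name and were tested, and none passed an adjusted p of 0.05. At an unadjusted p of 0.05, 7 of the 27 passed, against 10.4% of all genes tested. TRIM54 and TRIM63, ubiquitin ligases of the sarcomere, and LMOD1 and SVIL were higher in low IMF pigs, and CFL2, KBTBD13 and CAPZA1 in high IMF pigs. TRIM55, also tested, had a log2FC of -0.09 (SE 0.199). The log2FC was 0.52 (SE 0.169) for TRIM54, 0.52 (SE 0.208) for TRIM63 and 0.33 (SE 0.102) for SVIL, with adjusted p values of 0.42, 0.441 and 0.419, and the median over the 27 genes was 0.10. For LMOD1 the log2FC was 0.74 (SE 0.301). It was -0.70 (SE 0.204) for KBTBD13, whose mean was only 1.52 CPM, -0.28 (SE 0.109) for CFL2 and -0.28 (SE 0.12) for CAPZA1. In the 4 and 2 pigs whose Y chromosome counts matched the label the log2FC was 0.85 for TRIM54, 0.53 for TRIM63, 0.20 for SVIL and 0.61 for LMOD1. There it was -0.53 for KBTBD13, -0.14 for CFL2 and -0.31 for CAPZA1. Of 12 genes of the costamere, which ties the Z-disc to the membrane, 9 were tested and none passed an adjusted p of 0.05. The talins TLN1 and TLN2 and dystroglycan (DAG1) had an unadjusted p under 0.05, 3 of the 9 against 10.4% of all genes, all 3 higher in low IMF pigs. TLN2 had a log2FC of 0.54 (SE 0.12), an unadjusted p of 0.000546 and an adjusted p of 0.229, and in the 4 and 2 pigs the log2FC was 0.30. The median over the 9 genes was 0.12, and DMD and ITGB1 were below 0, at -0.22 (SE 0.111) and -0.07 (SE 0.104).

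Coordination across the pigs was weak over the whole list. The 38 genes form 703 pairs, whose Pearson r of log2 CPM over the 12 pigs had a median of 0.12, and 63.9% of the pairs had an r above 0. Over all 101695191 pairs of genes tested the median was -0.0014, with 49.8% above 0. An r of at least 0.8 was found for 9 member pairs (1.28%) and for 0.375% of all gene pairs. These values are a description. Pairs share pigs, libraries and the normalization, and without the TMM factors the median over member pairs was 0.05. Centring each gene on its group means gave 0.13. By role the median r was 0.39 for thick filament genes, 0.40 for the 3 M-band genes, 0.33 for the 4 stress-responsive genes, 0.14 for thin filament genes, 0.07 for Z-disc genes and -0.43 for the 3 assembly factors. Myopalladin (MYPN), a scaffold at the Z-disc, and NEB had the lowest median r with the other members, -0.12 and -0.11, and MYOZ1 and MYL2 the highest, 0.34 for each.

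The median r was 0.48 over the 6 pairs of 4 slow-fibre genes (MYL2, MYL3, CSRP3 and ANKRD2), 0.37 over the 15 pairs of 6 fast-fibre genes (MYL1, MYLPF, TPM1, ACTN3, MYOZ1 and MYBPC2) and 0.15 over the 24 pairs of a slow with a fast gene. Of the 24, 62.5% had an r above 0. The fast MYOZ1 had an r of 0.80 with the slow MYL3 and 0.77 with the slow MYL2, and MYLPF had 0.74 with MYL3. By contrast, the fast ACTN3 and MYOZ1 had an r of 0.37. The direct partners had r values of 0.61 for MYL2 with MYLPF, 0.59 for MYL1 with MYL3, 0.18 for ACTN2 with ACTN3 and -0.25 for MYBPC1 with MYBPC2. None of these 4 passed the permutation test after adjustment (adjusted p of 0.112, 0.115, 0.581 and 0.552).

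In all, 18 pairs of genes with a known partnership were tested across the pigs, and 4 reached an adjusted p of 0.05 (permutation test with 100000 resamples, two-sided, adjusted over the 18). These were MYL2 with MYL3, ACTN3 with MYBPC2, MYL1 with MYLPF and MYOM1 with MYOM2. By Spearman's rho 4 pairs passed as well, with CSRP3 and ANKRD2 in the place of the myomesins.

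The slow light chains MYL2 and MYL3 had an r of 0.89 (permutation p = 0.0002, adjusted p = 0.0036) and a rho of 0.82 (permutation p = 0.00186, adjusted p = 0.0167). The r was 0.89 centred on group means, 0.85 without the TMM factors (adjusted p = 0.00711) and 0.83 without pigs 5 and 12 (adjusted p = 0.0416). The pigs span the gap in MYL2. The 7 pigs with MYL2 at 509 to 964 CPM had MYL3 at 70.8 to 232 CPM, and the 5 pigs with MYL2 at 1584 to 1816 CPM had MYL3 at 237 to 458 CPM, so MYL3 ran on across the gap with no break. Within the 7 pigs the Pearson r was 0.74 (exact permutation p = 0.0615) and Spearman's rho 0.46 (exact permutation p = 0.302). The 5 pigs are too few for a correlation.

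ACTN3 and MYBPC2, both of fast fibres, had an r of 0.84 (permutation p = 0.00056, adjusted p = 0.00504) and a rho of 0.84 (permutation p = 0.0013, adjusted p = 0.0167). Centred on group means the r was 0.79. Without pigs 6 and 7, the lowest and highest in ACTN3, it was 0.66 and no longer passed. The fast light chains MYL1 and MYLPF had an r of 0.76 (permutation p = 0.00511, adjusted p = 0.0307) and a rho of 0.80 (permutation p = 0.0031, adjusted p = 0.0186). Without pigs 8 and 12 the r was 0.65, and without the TMM factors 0.66, and neither passed. The myomesins MYOM1 and MYOM2 had an r of 0.72 (permutation p = 0.00959, adjusted p = 0.0432) and a rho of 0.62 (permutation p = 0.0353, adjusted p = 0.106), and without pigs 7 and 12 the r was 0.82.

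CSRP3 and ANKRD2 passed by rho alone. Their r was 0.65 (permutation p = 0.0233, adjusted p = 0.0838) and their rho 0.73 (permutation p = 0.00925, adjusted p = 0.0416). The remaining pairs of partners passed by neither measure after adjustment. The Xin proteins XIRP1 and XIRP2 had an r of -0.19 (permutation p = 0.558) and a rho of -0.21 (permutation p = 0.513). The myosin assembly factors UNC45B and SMYD1, both needed to assemble thick filaments, had an r of -0.43 (permutation p = 0.162) and a rho of -0.39 (permutation p = 0.211). The actin-capping subunits CAPZA2 and CAPZB, which form 1 dimer, had an r of 0.35 (permutation p = 0.261) and a rho of 0.31 (permutation p = 0.319).

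Among all 703 member pairs, with p adjusted over the 703, 1 pair passed. ACTA1 and ACTN3 had an r of 0.89 (permutation p = 6e-05, adjusted p = 0.0422) and a rho of 0.83 (permutation p = 0.0015, adjusted p = 0.143). Pig 7 was highest in both genes, without pigs 2 and 7 the r was 0.77, and centred on group means it was 0.86. MYBPC2 had an r of 0.86 with MYOM2 (adjusted p = 0.0506) and of -0.86 with XIRP2 (adjusted p = 0.0506), the strongest negative value of the list. MYL1 had an r of 0.86 with CAPZA2 (adjusted p = 0.0527).

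**Figure D5:**
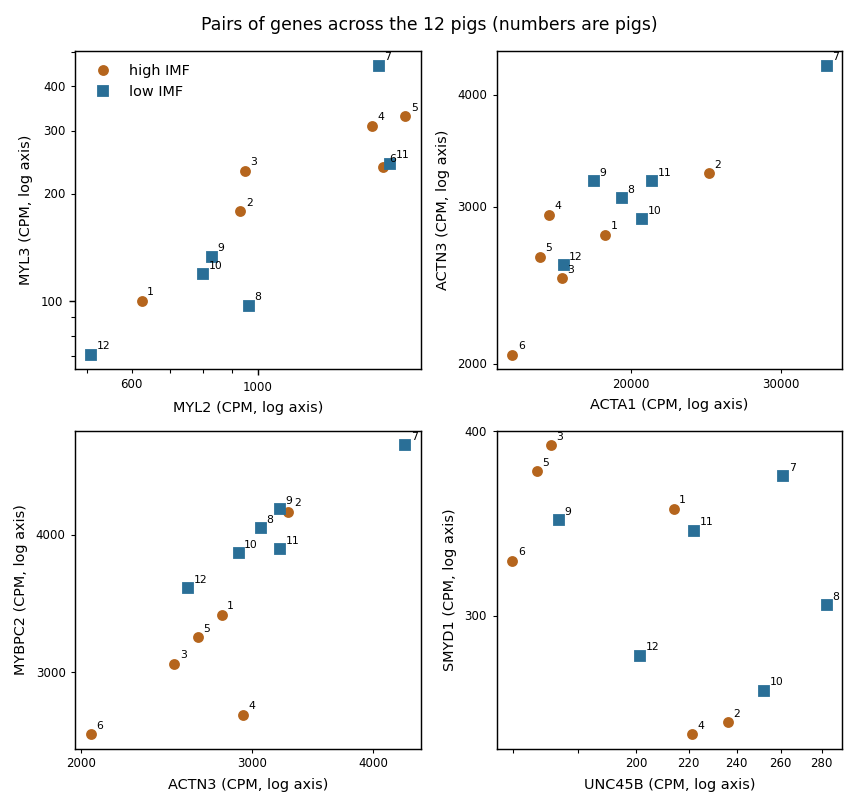
Levels of 4 pairs of genes in the 12 pigs, in CPM on log axes, with brown circles for high IMF and blue squares for low IMF pigs and the number of the pig beside each point. MYL3 rises with MYL2, whose levels leave a gap between 7 and 5 pigs, ACTA1 and ACTN3, and ACTN3 and MYBPC2, rise together with pig 7 at the top, and UNC45B and SMYD1 show no such rise.

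The 250 bases before the RefSeq start of 37 members were read from Sscrofa11.1, to see which motifs of muscle transcription factors they hold. Motifs were searched on both strands. The MEF2 site, the binding motif of a muscle transcription factor family, was held by 6 of the 37 (MYOM1, MYL1, XIRP1, TMOD4, SYNPO2 and MYPN), 16.2%, and by 2.7% of the same stretch of 20664 protein-coding genes. The CArG box, bound by serum response factor, was held by 2 (MYL3 and UNC45B), 5.41%, and by 1.27% of all. The E-box (CANNTG), bound by MyoD and related factors, was held by 27, 73%, and by 62.3% of all, and the TATA box (TATAAA) by 4, 10.8%, and by 10.4% of all. In SYNPO2 the TATAAA letters overlap the MEF2 site. These are matches of letters. RefSeq starts can lie away from the true start of transcription, and no match says only that the letters are not in this window.

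The stretches of the 2 pairs with the highest r are shown, 5′ to 3′ on the strand of the gene, with E-boxes and the CArG box in capitals. MYL2 lies at chr14:32213849-32214098 and MYL3 at chr13:29735617-29735866, both on the minus strand, ACTA1 at chr14:60412401-60412650 on the plus strand, and ACTN3 at chr2:5873780-5874029 on the minus strand.
MYL2: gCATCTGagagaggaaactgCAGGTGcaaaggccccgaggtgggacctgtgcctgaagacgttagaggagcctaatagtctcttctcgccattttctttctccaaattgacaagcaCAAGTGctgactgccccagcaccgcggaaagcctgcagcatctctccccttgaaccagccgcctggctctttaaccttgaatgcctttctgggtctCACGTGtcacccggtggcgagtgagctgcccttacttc
MYL3: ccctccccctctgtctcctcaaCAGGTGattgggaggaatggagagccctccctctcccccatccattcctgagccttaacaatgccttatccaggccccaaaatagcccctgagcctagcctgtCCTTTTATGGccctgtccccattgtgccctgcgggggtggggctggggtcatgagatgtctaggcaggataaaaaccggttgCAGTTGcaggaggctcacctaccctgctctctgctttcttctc
ACTA1: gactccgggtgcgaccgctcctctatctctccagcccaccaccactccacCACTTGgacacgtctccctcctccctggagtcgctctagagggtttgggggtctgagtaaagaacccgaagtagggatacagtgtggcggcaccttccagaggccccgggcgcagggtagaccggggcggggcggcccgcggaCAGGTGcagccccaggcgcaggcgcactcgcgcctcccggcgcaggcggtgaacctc
ACTN3: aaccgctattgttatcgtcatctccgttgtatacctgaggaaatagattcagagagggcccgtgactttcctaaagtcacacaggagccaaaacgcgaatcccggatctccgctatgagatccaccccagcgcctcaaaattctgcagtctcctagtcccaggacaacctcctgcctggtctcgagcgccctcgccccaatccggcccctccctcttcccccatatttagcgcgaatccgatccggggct
MYL2 held 4 E-boxes, MYL3 held 2 and a CArG box 115 bases before the start, ACTA1 held 2 E-boxes, and ACTN3 held none of the 4 motifs. The partners of neither pair had the same set of motifs in this window.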

How the data were processed

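RNA was measured in the Semimembranosus muscle of 12 pigs. By the study's methods and processing notes the authors trimmed read pairs with Trimmomatic, aligned them to Sscrofa11.1 with HISAT2, and used StringTie and HTSeq, and they deposited whole-number counts per Ensembl gene and pig, not normalized. The annotation release and the strand option are not given in the sources used here. Names came from a table of Ensembl gene names, and positions, exon lengths and sequences from RefSeq on Sscrofa11.1, matched by symbol. Groups followed the labels, which do not say which libraries shared a lane. Each pig gave 1 library.

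Genes kept by filterByExpr were normalized by TMM and tested in R 4.3.3 with edgeR 4.0.16 by quasi-likelihood, with group as the only term and p adjusted by the Benjamini-Hochberg method, after a trial on simulated data. CPM are TMM-scaled, and log2 CPM used a prior count of 2. Correlations used 100000 permutations (scipy 1.17.1, numpy 2.4.6 and pandas 2.3.3 in Python 3.11.15). Alternatives were other size factors, filters and covariates, a robust dispersion, DESeq2 1.42.0, limma-voom (limma 3.58.1), left-out pigs and other correlation scales. The members and all lists were chosen with earlier results of these data known. The text gives values for the members with the highest level per kilobase, the largest spread and the smallest p, and for both genes of isoform pairs. Of 36 pairs of partners, 18 could be measured. A correlation within the 7 pigs of low MYL2 was chosen after seeing the data.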

Additional observations from a re-analysis of the deposited data

Results flagged for a closer look

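In each group of 6 pigs, the gap of the highest or lowest pig to its neighbour was compared with the whole range, for 38 genes in 2 groups, 76 cases in all. In 5 cases the gap passed Dixon's critical value of 0.625. Chance alone passes it in about 1 of 20 groups. Pig 7 of the low IMF group stood apart in 3 genes, with 33957 CPM of ACTA1 against 16660 to 21177 in the other 5 pigs, 4315 CPM of ACTN3 against 2580 to 3205, and 4084 CPM of XIRP1 against 2293 to 2791. The normalization factor of that pig was the lowest, and without these factors its CPM were 27503 for ACTA1, against 18714 to 21236, 3495 for ACTN3, against 2667 to 3465, and 3308 for XIRP1, against 2124 to 3135. Pig 7 was thus highest of its group in these genes on both scales, by a wide margin without the factors only for ACTA1. In the high IMF group, pig 3 had 18.9 CPM of MYOM3 against 49.3 to 65.7 in the other 5 pigs, and pig 6 had 353 CPM of MYOZ3, a calsarcin, against 474 to 513.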

How the results depend on the processing

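The number of members called, 0, was the same under all 22 alternatives, as was the direction of the 10 members with the smallest p. The number at an unadjusted p of 0.05, 4, fell to 0 without the 6 pigs whose Y chromosome counts went against the label, and ranged from 3 to 8 when 1 pig was left out, with 8 without pig 2. With age as a covariate it was 6, with ACTA1 and ACTN3 added, where 9.79% of all genes passed. By DESeq2's Wald test it was 5, with ACTC1 added. The share of counts on the members, 11.2% on average, was 12.8% when the gene with the most counts was left out of the total. Of the fixed pairs, 4 passed in the main analysis and 2 without the 2 pigs farthest from the median of the first gene. Fewer pigs enter each of the fits that leave pigs out. The median log2FC of the members ranged from -0.03 to 0.06 and the median r of member pairs from 0.08 to 0.16 when 1 pig was left out. The labels give the pigs no replicate numbers shared between groups. No paired analysis was possible because the labels pair no pigs. The depth does not limit these values, and the spread between 6 pigs does.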
